A study of Mus musculus with 2 samples.

Results

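The Hsd17b genes encode dehydrogenases that were first named for oxidising or reducing the hydroxyl group at carbon 17 of sex steroids. The members described here are Hsd17b1, Hsd17b2, Hsd17b3, Hsd17b4, Hsd17b6, Hsd17b7, Hsd17b10, Hsd17b11, Hsd17b12 and Hsd17b13, which is 10 of the 29967 genes on the arrays. These 29967 include 2436 array features with no gene name. The members were taken by their gene name on the array, where 14 of 39429 probes belong to them. They were chosen by the measured ratios of these same arrays, so their values are given as a description and carry no test.

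The family is united by name more than by function. Some members set the balance of active and inactive sex steroids in steroidogenic and peripheral tissues: one direction of the reaction makes estradiol and testosterone and the other removes them. Other members act on lipids, in cholesterol synthesis, in peroxisomal and mitochondrial breakdown of fatty and amino acids, in the elongation of fatty acids and on the surface of lipid droplets. The urothelium, which lines the ureter and bladder, ends in a layer of superficial cells that carry uroplakins.

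Ureters of mouse embryos at E16.5 (NMRI strain) were profiled to find transcripts that depend on Pparg, a nuclear receptor that responds to lipid ligands. Conditional mutants (Pparg-cKO) were Pax2-cre/+; Pparg(fl/fl), and controls were labelled Pparg(fl/?), so that floxed Pparg was carried by both groups. Pax2-cre recombines in the nephric duct and the epithelium derived from it, so the surrounding mesenchyme kept Pparg, and whole ureters were measured. Each of 2 dual-colour arrays held 1 mutant and 1 control pool of several embryos, from females on array 1 and males on array 2, with dyes exchanged. Dye and sex therefore changed together and cannot be told apart, and the spread between arrays includes both. One label of stage, for the second channel, reads E14.5, whereas titles and protocols read E16.5.

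The labels conflict on the direction of the comparison. RNA A denotes here the RNA read in red on array 1 and in green on array 2, and RNA B is its partner. By the dye labels RNA A is the control on both arrays. The study's own direction makes RNA A the mutant. So does the sign of the deposited fold changes, if read in the order of the sample titles, Pparg-cKO vs control. Apart from the arrays, the study reports by in situ hybridisation that Hsd17b2 was strongly reduced or absent in the mutant. By immunofluorescence it describes mutant luminal cells without uroplakin protein at fetal stages, and at most a few with UPK1B or UPK2 after birth. All ratios below are log2 of RNA A over RNA B, and no genotype is attached to them. Read by the dye labels, their direction is opposite to the study's. The Pparg probe does not decide it. Its processed signals (intensity units after background subtraction and dye normalisation) were 11295 for RNA A against 7430 for RNA B on array 1, and 12888 against 7872 on array 2. This probe starts at base 1562 of its transcript and was not shown to lie in the floxed exons, and a transcript lacking those exons can still be read by it. The study detected such a transcript in the mutant by in situ hybridisation. At a later fetal stage than the one profiled here, it reports that transcript as increased over the control.

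On array 1, 80.3% of spots were well above background in green and 70.4% in red, with nearly the same shares on array 2, and no spot was saturated. The median log2 ratio of the 21414 genes tested, those read well above background in 1 RNA or both on each array, was 0.00 on array 1 and 0.03 on array 2. Only 2 arrays were made, and their number limits the precision of every value.

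The probes of 4 members are shown, because the description turns on them: the probe of Hsd17b2, which differed between the RNAs, that of Hsd17b12, whose ratio changed sign between the arrays, and those of Hsd17b3 and Hsd17b6, which gave no signal well above background. Each is the 60-base array oligonucleotide, 5′ to 3′, in lower case. Capitals mark the longest stretch that also occurs in the probe of another member.
Hsd17b2: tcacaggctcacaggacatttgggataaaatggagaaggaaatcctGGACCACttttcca
Hsd17b12: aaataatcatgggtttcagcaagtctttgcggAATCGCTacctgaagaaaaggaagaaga
Hsd17b3: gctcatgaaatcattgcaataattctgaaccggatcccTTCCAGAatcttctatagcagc
Hsd17b6: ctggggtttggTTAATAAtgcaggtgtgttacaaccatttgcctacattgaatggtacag
The marked stretch was 7 bases in each of these 4 probes. Over all 86 pairs of probes of different members the longest shared stretch was 9 bases, between Hsd17b7 and Hsd17b13 among others. The array's design places the Hsd17b2 probe at chr8:120282508-120282567 on the plus strand, the Hsd17b12 probe at chr2:93873719-93873778 on the minus strand and the Hsd17b6 probe at chr10:127431580-127431639 on the minus strand (mm9). The Hsd17b3 probe spans chr13:64159943-64160741 on the minus strand, which is 799 bases for a 60-base probe, so it crosses at least 1 intron. Each of the 4 sequences holds at least 1 forward reading frame without a stop codon. Exons and UTRs of mm9 were not used here.

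Hsd17b2 was the member that differed between the RNAs. The enzyme oxidises estradiol to estrone and testosterone to androstenedione, which lowers active sex steroids in the cells that hold it. Its signal was 112 for RNA A against 485 for RNA B on array 1, and 112 against 533 on array 2. Both RNA A pools lay below both RNA B pools, as they also did for Hsd17b4, whose ratio was small. The share of all genes with such an order was not counted, so nothing is read from it for any gene. RNA B was 4.34-fold brighter than RNA A on array 1 and 4.77-fold on array 2. The log2 ratios averaged -2.19 ± 0.10 (SD, n = 2 arrays). The probe was well above background in all 4 channels.

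The spots of the Hsd17b2 probe agreed closely. The 4 spots on array 1 gave log2 ratios from -2.20 to -2.06, and the 4 on array 2 from -2.33 to -2.21. These spots share one RNA pair per array and are not replicates of the condition. Among the 69 genes past the filter with more signal in RNA B, Hsd17b2 had the second lowest mean log2 ratio, which is rank 2. The study names a signal threshold of 100 and a fold change of 1.5 without saying how they apply to dyes and arrays. The filter here asks each array for a 1.5-fold difference or more, in one common direction, and for 100 or more units of processed signal in its brighter RNA.

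**Figure D1:**
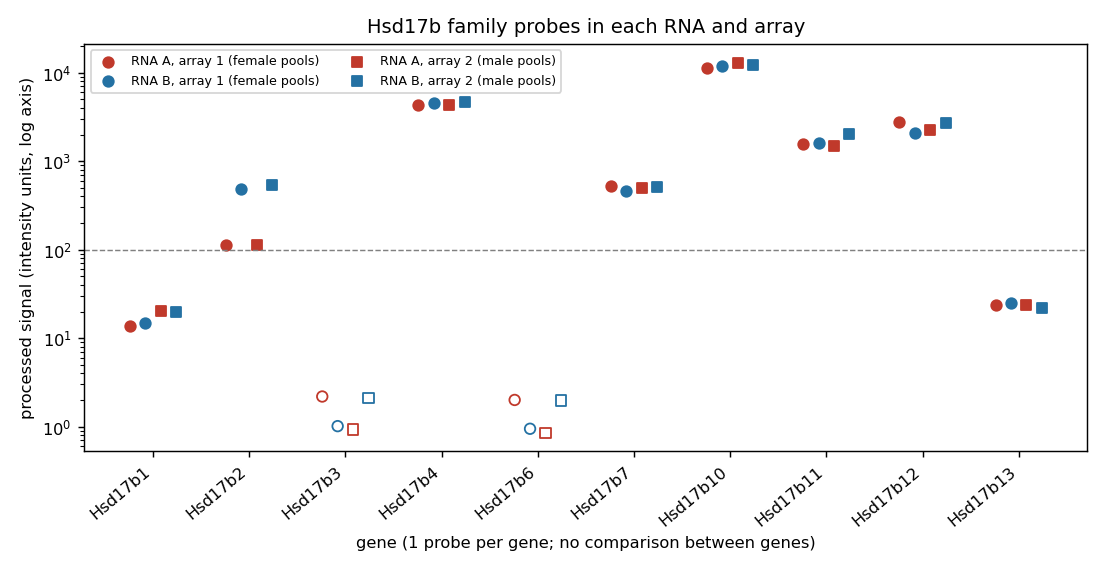
Processed signal of each member's brightest probe (log axis, intensity units) in RNA A (red) and RNA B (blue) on array 1 (circles, female pools) and array 2 (squares, male pools). Open symbols were not well above background, and the dashed line marks a signal of 100. Hsd17b2 stands at 112 in RNA A on both arrays and at 485 and 533 in RNA B, while the other members with filled symbols lie close together across the 4 channels. Heights of different probes are not comparable.

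Of the 10 members, 8 were among the 21414 genes tested, and 6 reached a signal of 100 on each array in its brighter RNA. The filter was passed by 1 of these 6 with more signal in RNA B and by 0 with more in RNA A, and 0 met both its limits with opposite directions on the arrays. Over all 14997 genes that reached that signal, 0.46% passed with more signal in RNA B, 0.313% with more in RNA A, and 0.86% met the limits in opposite directions. Hsd17b2 was among the reasons for choosing the family, so nothing is read from its count. The other 5 members that reached a signal of 100 had a median mean log2 ratio of 0.01 and a median absolute value of 0.09, beside 0.00 and 0.09 over the 14997 genes.

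Hsd17b1, Hsd17b3 and Hsd17b6, further members that act on sex steroids, were dim. Hsd17b1, which reduces estrone to estradiol and is known from ovary and placenta, had signals of 13.8 for RNA A against 14.96 for RNA B on array 1, and of 20.4 against 19.9 on array 2. The array 1 values were below the array 2 values in both RNAs, and the log2 ratios were -0.12 and 0.04. Its spots ranged from -0.31 to 0.15 on array 1 and from -0.13 to 0.22 on array 2.

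Hsd17b3, which makes testosterone from androstenedione in the testis, was not well above background in any channel. Hsd17b6, an enzyme of androgen and retinoid oxidation, was not well above background either. Hsd17b3 read 2.19 for RNA A against 1.01 for RNA B on array 1, and 0.93 against 2.12 on array 2. Hsd17b6 read 2.00 for RNA A against 0.95 for RNA B on array 1, and 0.85 against 1.97 on array 2. In both genes the higher value was in the red channel on either array, and no ratio is read from them. Surrogate values, which the scanner software puts in place of signals near background, stood for all kept spots of RNA A in both probes on both arrays and for 0.50 to 1 of the spots of RNA B. The lowest processed signal of any probe well above background was 5.14 for RNA A against 2.45 for RNA B on array 1, and 2.58 against 5.76 on array 2.

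Hsd17b7 reduces a keto group in late cholesterol synthesis and can also reduce estrone. Its brightest probe (chr1:171880203-171880262, mm9) read 522 for RNA A against 455 for RNA B on array 1, and 501 against 506 on array 2. The 4 values overlapped, and the log2 ratios averaged 0.09 ± 0.15 (SD, n = 2 arrays). A second probe gave 0.20 and -0.10 on the 2 arrays, and the dimmest one 0.06 and -0.14. All 3 probes were higher in RNA A on array 1 and lower on array 2.

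The peroxisomal and mitochondrial members were bright and nearly equal in both RNAs. Hsd17b4, the multifunctional enzyme of peroxisomal beta-oxidation, read 4318 for RNA A against 4570 for RNA B on array 1, and 4367 against 4701 on array 2. RNA A was the lower on both arrays, with log2 ratios averaging -0.09 ± 0.02 (SD, n = 2 arrays), which is far under the 1.5-fold limit. Hsd17b10 is a mitochondrial dehydrogenase of isoleucine breakdown and a subunit of the RNase P that trims mitochondrial tRNAs. Its probe (chrX:148438913-148438972, mm9) read 11339 for RNA A against 11822 for RNA B on array 1, and 13027 against 12320 on array 2. Array 1 gave a log2 ratio of -0.06 and array 2 one of 0.08, so the sign turned on a small difference.

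Hsd17b12 reduces the ketoacyl group during elongation of long fatty acids. It read 2751 for RNA A against 2106 for RNA B on array 1, and 2235 against 2671 on array 2, so that the order of the RNAs turned between the arrays. Array 1 gave a log2 ratio of 0.38 and array 2 one of -0.26, and their mean was 0.06 ± 0.45 (SD, n = 2 arrays). The spots did not overlap between the arrays, from 0.35 to 0.44 on array 1 and from -0.31 to -0.22 on array 2. On both arrays the brighter channel was the red one, so sex and dye cannot be told apart.

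Hsd17b11 and Hsd17b13 encode proteins of lipid droplets. Hsd17b11 read 1583 for RNA A against 1584 for RNA B on array 1, and 1479 against 2003 on array 2 (chr5:104419127-104419186, mm9). RNA B on array 2 stood above the other 3 values, and the log2 ratios were 0.00 and -0.44. A second, dimmer Hsd17b11 probe disagreed, with -0.64 on array 1 and 0.08 on array 2.
Hsd17b13, best known from liver, was dim. Its brighter probe (chr5:104384701-104384760, mm9) read 23.7 for RNA A against 24.8 for RNA B on array 1, and 23.7 against 21.7 on array 2, and the values of the RNAs overlapped. Its other probe was well above background in the green channel alone on either array.

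**Figure D2:**
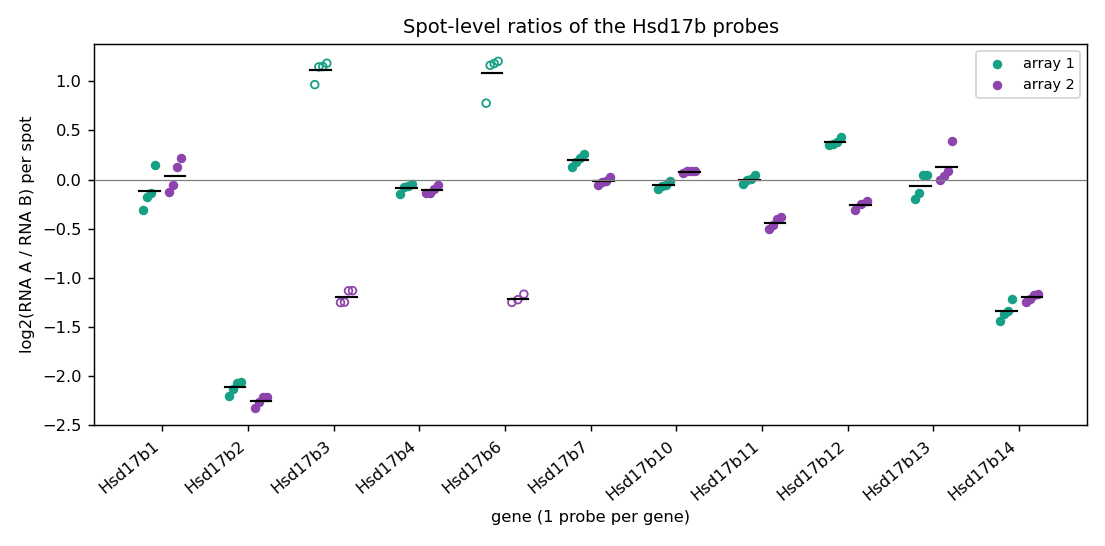
Log2 ratio of RNA A over RNA B for each kept spot of the members' brightest probes and of Hsd17b14 (vertical axis), on array 1 (green) and array 2 (purple), with a black bar at the mean of the spots. Open points belong to probes not well above background. Hsd17b2 lies between -2.33 and -2.06 on both arrays, Hsd17b12 changes sign between the arrays, and the spots of the remaining members with filled points lie between -0.50 and 0.39.

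Outside the 10 members, the array held 2 more genes with an Hsd17b symbol, Hsd17b14 and Hsd17b8, the latter under the name H2-Ke6. Hsd17b14, which oxidises estradiol and can also act on fucose, read 173 for RNA A against 439 for RNA B on array 1, and 201 against 462 on array 2. Both RNA A values were below both RNA B values, and the log2 ratios averaged -1.27 ± 0.10 (SD, n = 2 arrays), or 2.41-fold more signal in RNA B. It passed the filter. Its adjusted p was 0.050016 by limma (an intercept fitted to the 2 log2 ratios over the 21414 genes, Benjamini-Hochberg adjustment), which misses the threshold of 0.05. With each array centred on its median the value was 0.0419, which passes. It was not called with no filter on dim probes, after normexp and loess or with separate channels. Those fits called 0 genes with more signal in RNA B. In the fit without centring, 0.182% of genes were called with more signal in RNA B and 0.107% with more in RNA A. Hsd17b8, a mitochondrial member of fatty acid synthesis, read 1471 for RNA A against 1705 for RNA B on array 1, and 1983 against 2121 on array 2. Its mean log2 ratio was -0.16 ± 0.08.

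**Figure D3:**
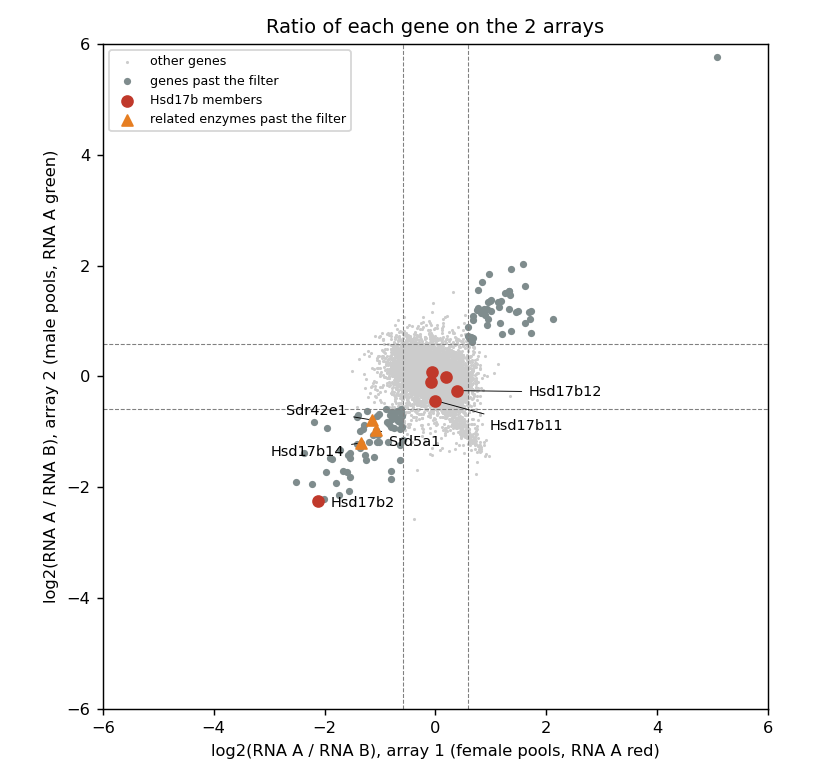
Log2 ratio of RNA A over RNA B on array 1 (horizontal) and array 2 (vertical) for the 14997 genes that reached a signal of 100. Dashed lines mark 1.5-fold, grey dots the genes past the filter, red circles the 6 members shown and orange triangles the related enzymes past it. Hsd17b2 lies at -2.12 and -2.25, and Hsd17b14, Srd5a1 and Sdr42e1 lie in the same quadrant nearer to zero.

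The pathways around the family were followed through 111 further genes in 8 lists, drawn up with earlier results of these data known. All 111 were on the array, 99 were well above background and 77 reached a signal of 100. The filter was passed by 3 of them with more signal in RNA B and by 0 with more in RNA A. Over all 14997 genes that reached that signal the shares were 0.46% and 0.313%. The median of the 99 was a log2 ratio of -0.02, beside 0.01 over the 21414 genes. limma called 0 of them in either direction at an adjusted p under 0.05.

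The 3 genes past the filter were Hsd17b14, Srd5a1 and Sdr42e1. They came from the lists of related dehydrogenases and of sex steroid enzymes, and their kind follows from how those lists were drawn up. Srd5a1, the steroid reductase that turns testosterone into dihydrotestosterone, read 2799 for RNA A against 5877 for RNA B on array 1, and 2961 against 5783 on array 2. The RNAs did not overlap, the mean log2 ratio was -1.02 ± 0.07 (SD, n = 2 arrays), and limma's adjusted p was 0.123. Sdr42e1, a short-chain dehydrogenase related to steroid dehydrogenases, read 144 for RNA A against 317 for RNA B on array 1, and 212 against 365 on array 2. Here too both RNA A values were the lower ones, with log2 ratios averaging -0.96 ± 0.25 (SD, n = 2 arrays) and an adjusted p of 0.188 by limma.

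In the list of other 17-beta and related dehydrogenases, 2 of 15 genes passed the filter, both brighter in RNA B, and the median over the 10 well above background was -0.09. Of the 17 sex steroid enzymes, 1 passed, and the median over 14 was 0.02. In these 2 lists 10 and 4 genes reached a signal of 100. Over all 14997 genes at that signal, 0.46% passed with more signal in RNA B. The 7 steroid receptors had 0 past the filter. The progesterone receptor Pgr had a mean log2 ratio of 0.36 ± 0.20, and the estrogen receptor Esr1 had -0.36 on array 1 and 0.86 on array 2.

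The lists that go with the lipid roles of the family held 0 genes past the filter. Cholesterol synthesis had a median of -0.03 over 17 genes, with Tm7sf2, a sterol reductase, at -0.47 on array 1 and 0.02 on array 2, and Ebp, a sterol isomerase, at 0.14 and 0.22. Peroxisomal beta-oxidation had a median of -0.03 over 16 genes, and its transporter Abcd3 had -0.26 ± 0.04, while Acox2, an oxidase of branched acyl chains, had 0.19 on array 1 and -0.50 on array 2. Elongation of very long fatty acids had a median of -0.05 over 11 genes, with the elongases Elovl6 at -0.34 ± 0.06 and Elovl7 at 0.28 ± 0.02. Isoleucine breakdown and mitochondrial RNase P had a median of 0.02 over 10 genes, and Prorp, the nuclease of that RNase P, had 0.56 on array 1 and -0.20 on array 2. Bckdhb, a subunit of the branched-chain keto acid dehydrogenase, had -0.28 and -0.04. Lipid droplet genes had a median of -0.07 over 15 genes. The droplet coat genes Plin4 and Plin5 were at -1.01 ± 0.31 and -0.71 ± 0.23 with signals under 40, and their adjusted p by limma was 0.166 and 0.554.

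**Figure D4:**
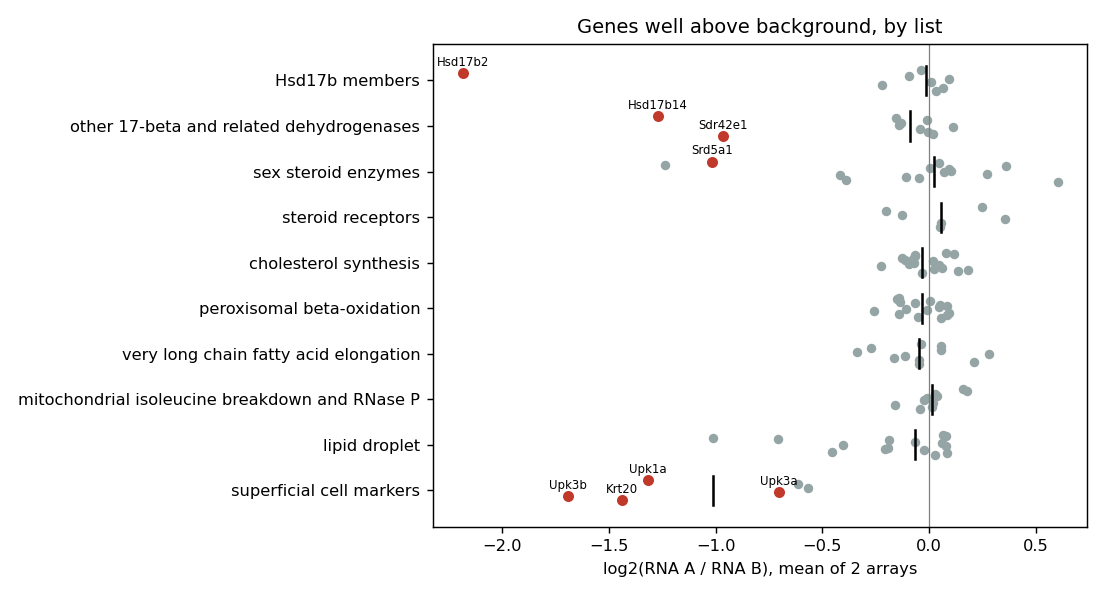
Mean log2 ratio of RNA A over RNA B (horizontal, mean of 2 arrays) of genes well above background in the Hsd17b members, the 8 pathway lists and the superficial cell markers. Red points passed the filter, grey points did not, and black bars are list medians. Hsd17b2 is the lowest point at -2.19, the pathway medians lie between -0.09 and 0.05, and the median of the superficial cell markers is -1.01.

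The 5 genes past the filter with array ratios closest to those of Hsd17b2, by distance over the 2 log2 ratios, were Sele, Gsdmc4, Sptssb, Aqp3 and Gsdmc3. Sele encodes an adhesion molecule of endothelium, Sptssb a small subunit of the serine palmitoyltransferase that starts sphingolipid synthesis, Aqp3 a water and glycerol channel, and Gsdmc4 and Gsdmc3 gasdermins. Sptssb read 396 for RNA A against 1316 for RNA B on array 1, and 401 against 1766 on array 2. The mean log2 ratio was -1.94. Aqp3 had -1.78 and -1.93 on the 2 arrays. Gsdmc3 and Gsdmc4 are close copies, and which of them their probes read is uncertain. With 2 values per gene, likeness says no more than that these ratios were close.

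Markers of superficial cells moved with Hsd17b2. All 6 (Upk1a, Upk1b, Upk2, Upk3a, Upk3b, Krt20) had less signal in RNA A on both arrays, 4 passed the filter, and the median log2 ratio was -1.01. The summed signal of the 6 markers was 50739 for RNA A against 82481 for RNA B on array 1, and 49171 against 86415 on array 2. Upk3a alone gave 32480 for RNA A on array 1, so the sum mostly follows that probe. limma called 2 of the 6, Upk3b at -1.69 ± 0.03 with an adjusted p of 0.0206 and Upk1a at -1.32 ± 0.14 with an adjusted p of 0.0452. Both calls were lost with no filter on dim probes, with normexp and loess and with separate channels, where 0 genes were called with more signal in RNA B. Krt20 had -1.44 ± 0.73 and Upk3a -0.70 ± 0.09. By in situ hybridisation the study places Hsd17b2, Sptssb, Sdr42e1, Upk1a and Krt20 in superficial cells of control ureters. In whole ureters, fewer superficial cells and less RNA per cell cannot be told apart, and the part of either in the Hsd17b2 ratio was not tested.

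Other cell types were read beside it. Of the 4 general epithelial markers, 2 had less signal in RNA A on both arrays, Krt18 at -0.55 ± 0.35 and Krt8 at -0.39 ± 0.29. Cdh1, at -0.59 on array 1 and 0.15 on array 2, and Epcam, at 0.24 and -0.05, changed sign. The summed signal was 46830 for RNA A against 71874 for RNA B on array 1, and 58289 against 66632 on array 2. This sum mostly follows Krt8 and Krt18, which gave 24148 and 14986 for RNA A on array 1. The basal cell markers ran the other way in 3 of 4, with Krt5 at 0.47 ± 0.29 and Krt15 at 0.44 ± 0.15, and sums of 4492 and 3885 on array 1 and 4797 and 3812 on array 2. All 3 smooth muscle markers had less signal in RNA A, including Myh11 at -0.80 ± 0.54 and Tagln at -0.56 ± 0.18, with sums of 68228 and 83684 on array 1 and 59648 and 106142 on array 2. None of these passed the filter. The smooth muscle sum mostly follows Acta2, which alone gave 49285 for RNA A on array 1.

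Because several members and Hsd17b2 itself are known from steroidogenic and liver tissue, markers of nearby organs were checked. The 6 adrenal and gonad markers summed to 230 for RNA A against 220.0 for RNA B on array 1, and to 167 against 309 on array 2. Cyp11b1, the adrenal enzyme that finishes corticosterone, had -0.26 and -2.07, and Hsd3b1 had -0.47 and -2.004, with signals no higher than 65 in any channel. The 3 liver markers summed to 5891 and 5543 on array 1 and to 1864 and 4812 on array 2, with Afp at -0.10 and -1.41 and Alb at 0.36 and -1.31. Of the 4 nephron markers 2 were well above background. Slc34a1, the phosphate carrier of the proximal tubule, had -2.73 ± 0.59 and an adjusted p of 0.0118 by limma, a call lost under the same 3 alternatives, at signals under 40, and Lrp2 had -0.35 ± 0.17. The summed nephron signal was 212 and 278 on array 1 and 222 and 336 on array 2. It was mostly that of Lrp2, which gave 196 for RNA A on array 1. The part of nearby tissue in the Hsd17b2 ratio was not tested.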

How the data were processed

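Per the file headers, Agilent Feature Extraction 10.7.3.1 produced the intensities the authors deposited, processed spot by spot: background-subtracted, detrended, given surrogate values near background and dye-normalised (linear and LOWESS), which can shrink or distort ratios of dim probes. The deposited log10 ratio served to check the dyes. The authors' deposited table of signed fold change, a score of unstated base, entered as an alternative to the ratios used here. The sample titles give the direction of the score as Pparg-cKO vs control. Its correlation with the ratios used here was r = 0.996 and 0.997. Its sign was that of RNA A over RNA B for all 1055 and 789 probes past 1.5-fold. Its scale was read from the values and its centring is unknown.

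Control spots (17263 per array) and flagged spots (5705 and 5579) were left out, and log2 signals averaged over the 4 spots of a probe. RefSeq (GRCm38.p6) named 28725 of 39429 probes and was used for names and gene order. Positions are mm9. A gene is its brightest probe by mean log2 signal. A probe counted as well above background if the share of kept spots with that call was 0.5 or more. limma 3.58.1 (R 4.3.3; lmFit, eBayes) was fitted over all 21414 genes, members included, and its p-values are given for other genes only. With 2 arrays it has 1 residual degree of freedom per gene before moderation, and p-values measure the spread between these arrays only. The fit was also run on simulated data in which all genes shared 1 spread, and that run does not bear on the calls made here. Tables used Python 3.11.15, pandas 2.3.3 and matplotlib 3.10.9.

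The members and lists were chosen with earlier results of these data known, and 1 gene of the cholesterol list is not reported here. Named are the members, Pparg, Hsd17b14 and Hsd17b8, list genes past the filter (or the 2 with the largest absolute ratio of a list with none), the superficial cell markers and the 5 genes nearest to Hsd17b2. Alternatives were other background corrections and normalisations (normexp with offset 50, loess, centring, separate channels), other rules for spots, probes, fold and signal, the deposited table and leaving out each array. Both arrays lay on 1 slide.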

Additional observations from a re-analysis of the deposited data

Results flagged for a closer look

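Some members and pathway or marker genes had ratios of opposite sign on the array of female pools and the array of male pools, each larger than the SD over its spots. No difference of this kind was tested, and dye changed with sex, so dye and sex cannot be told apart. Among the members, Hsd17b12 had a log2 ratio 0.64 higher on array 1 than on array 2, and Hsd17b10 differed by -0.14. Among the other genes the difference of array 1 minus array 2 was -1.23 for Esr1, -0.50 for Tm7sf2, 0.76 for Prorp and 1.67 for Alb. Esr1 was dim, with no signal above 28.1. Only genes named above are given here, and further genes of the lists also had ratios of opposite sign. Of the 14997 genes that reached a signal of 100 on each array, 64.9% had ratios of opposite sign. That share is a looser count, since it sets no condition on the SD over spots.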

How the results depend on the processing

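The Hsd17b2 ratio stayed between -2.25 and -2.01 over 9 alternatives, and the lowest absolute value came from normexp and loess on the mean signals (-2.01). Leaving out either array gave -2.25 and -2.12. Leaving out an array turned the sign of the mean ratio in 5 of the 8 members well above background (Hsd17b1, Hsd17b7, Hsd17b10, Hsd17b12 and Hsd17b13), and for Hsd17b12 gave -0.26 and 0.38. Hsd17b2 was the 1 member past the filter with more signal in RNA B, and 0 passed with more in RNA A, under all alternatives run. Without an intensity threshold, 2 members met the fold limit in opposite directions, Hsd17b3 and Hsd17b6, both at surrogate values. The pathway genes past the filter with more signal in RNA B numbered 3 to 5 when either array was left out, and those with more in RNA A 0 to 1. The higher counts came without array 2, where Mgll, Dgat2 and, in the other direction, Cyp1b1 joined.
limma's 39 calls with more signal in RNA B over all genes became 0 with no filter on dim probes, 0 after normexp and loess, 19 after loess and 0 with separate channels and no replicate block. Its 23 calls with more signal in RNA A became 0, 1, 7 and 1. The 3 fits with 0 calls for RNA B had 275, 326 and 407 genes at an unadjusted p under 0.05. The cause was not tested. The calls of Upk1a, Upk3b and Slc34a1 were lost in those 3 fits. No limma test was possible without either array, since 1 array leaves no residual degrees of freedom, and no paired analysis beyond the ratio within each array was possible because each array is already the pair. Signals of Hsd17b1, Hsd17b3, Hsd17b6 and Hsd17b13 were too dim to show a modest difference.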

Other observations

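The chromosomal neighbours of the members were looked at after the values had been seen, with order taken from the RefSeq listing and protein-coding genes alone. Of 18 measured neighbours that are not members, 14 reached a signal of 100 in the brighter RNA on both arrays. Of these, 1 passed the filter with more signal in RNA B and 0 with more in RNA A, beside 0.46% and 0.313% of all 14997 genes. It was Sdr42e1, next to Hsd17b2, with log2 ratios of -1.14 and -0.79. The study's in situ hybridisation places both genes in superficial cells. Mphosph6, on the other side of Hsd17b2, had 0.36 and -0.10. Hsd17b11 and Hsd17b13 lie side by side, and neither passed the filter. Nudt9, which follows Hsd17b11, had -0.02 and 0.00.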
